A study of Mus musculus with 16 samples.

Results

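The cells described here were Ly6c2 monocytes of 2 mouse tumors, chosen by a gate on unique molecular identifier (UMI) counts. A barcode entered the gate with at least 1 UMI of Ly6c2, at least 2 of Chil3 and Plac8 together, at least 1 of Lyz2, fewer than 2 UMIs of C1qa, C1qb and C1qc per 1000 UMIs, and no UMI of Cd3d, Cd3e, Csf3r, Cxcr2 or Fcrl5. The gate held 406 of the 16350 barcodes kept, and the files held 28678 barcodes in all. Barcodes were kept with 500 genes or more and a mitochondrial share of UMIs of 10% or less, and a barcode string found in several libraries of a tumor line was kept in the library where its UMIs were highest.

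In the study, MC38 (a colon carcinoma line) or Panc02-SIY (a pancreatic carcinoma line that carries the SIY model antigen) was grown in C57BL/6J mice that were 6 to 8 weeks old. Tumors were left untreated (NT) or received 12 Gy of radiation therapy (RT) and were taken 24 h later, and live CD45+ cells were sorted for single-cell RNA sequencing. The labels give 4 replicate libraries in each of the 4 groups (MC38 NT, MC38 RT, Panc02-SIY NT, Panc02-SIY RT). The number of animals per group in the study's methods is smaller than the number of libraries, so p-values measure the spread between these libraries, which may in part be technical. Each tumor type was 1 transplanted line, and 1 dose and 1 time were sampled. The CD45+ gate should leave leukocytes only, so a read-out of tumor or stromal genes in it is a check on the sort.

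Classical monocytes leave the bone marrow through the chemokine receptor CCR2, circulate with a high surface level of Ly6C and enter inflamed tissue and tumors, where they can become macrophages or take on features of dendritic cells. Chil3 (a chitinase-like lectin) and Plac8 are abundant in newly arrived cells of this kind, Lyz2 encodes lysozyme, and the C1q genes mark macrophages that have matured in the tissue. A monocyte in an irradiated tumor may have been irradiated there or may have entered afterwards, and transcripts made under the control of p53, the transcription factor of the DNA damage response, are a common read-out of irradiation.

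The gated barcodes numbered 10, 20, 33 and 29 in the 4 MC38 NT libraries and 10, 15, 30 and 42 in the MC38 RT libraries. There were 7, 8, 16 and 20 in the Panc02-SIY NT libraries and 21, 32, 56 and 57 in the Panc02-SIY RT libraries. Panc02-SIY NT was thus the thinnest group, with 51 barcodes against 92 in MC38 NT, 97 in MC38 RT and 166 in Panc02-SIY RT. The median depth per gated barcode was 19590 UMIs in MC38 NT, 18417 in MC38 RT, 12446 in Panc02-SIY NT and 10285.5 in Panc02-SIY RT. Whole libraries held between 3240877 and 43776342 UMIs, and the gated barcodes of a library together held between 96633 (Panc02-SIY NT 2) and 810615 (MC38 NT 3). The median mitochondrial share of a library's gated barcodes lay between 1.74% and 2.56% in MC38 and between 2.76% and 3.28% in Panc02-SIY. Depth, mitochondrial share and the set of libraries all went with the tumor line, and their part in a difference between lines cannot be told apart from that of the tumor.

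The MC38 libraries shared barcodes with each other. Their 9843 barcode entries came from 2632 strings, of which 1239 were found in several MC38 libraries, while the Panc02-SIY libraries had 18835 entries from 18136 strings and 187 shared strings. Of the 189 gated barcodes of MC38, 154 had a string that was also present in another MC38 library. The next library held a median of 6.05% and at most 21.5% of the UMIs of the library in which the barcode was kept. Of the 217 gated barcodes of Panc02-SIY, 3 had such a string. Results are therefore given with the shared strings resolved. With every barcode entry kept the gate held 803 entries in MC38 in place of 189, and the shares and counts of called genes with these entries are given beside the results.

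The gate values themselves chose the members and are given as a description. The median barcode had 12.5 UMIs of Ly6c2 in MC38 NT, 10 in MC38 RT, 3 in Panc02-SIY NT and 8 in Panc02-SIY RT. For Lyz2 the medians were 84.5, 83, 12 and 43 UMIs in the same order, and for Chil3 and Plac8 together 32, 42, 42 and 50. At the edge of the gate, 65 members had a single UMI of Ly6c2 and 205 kept barcodes failed on Ly6c2 alone. For Chil3 and Plac8 together, 11 members were at 2 UMIs and 18 barcodes that failed on nothing else were at 1. For the C1q genes, 35 members lay between 1 and 2 UMIs per 1000 and 19 barcodes that failed on nothing else lay between 2 and 3. The neutrophil genes Csf3r and Cxcr2 alone kept out 466 barcodes, of which 207 had 1 UMI of them.

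Genes that the gate did not use were compared with the name. Ccr2, the receptor that brings classical monocytes out of the marrow, had a mean level of 800.2 ± 229 CPM (UMIs scaled to a common library sum) over the 14 libraries with at least 10 gated barcodes, against 409 ± 261 CPM in barcodes with at least 2 C1q UMIs per 1000 (C1q macrophages, n = 16 libraries), and 91.6% of gated barcodes had a UMI of it. F13a1 (a coagulation factor subunit of monocytes) stood at 112 against 35.2 CPM, Vcan (the proteoglycan versican) at 57.0 against 7.25, and Hp (haptoglobin) at 107 against 4.16. Over all libraries the means of these 4 genes were higher in the gated barcodes than in C1q macrophages, and in 13 of 14 libraries for Ccr2 and F13a1 and 14 of 14 for Vcan and Hp. In Panc02-SIY NT, however, the mean of F13a1 was 42.5 CPM in the tested monocyte libraries and 59.7 CPM in C1q macrophages of all 4 libraries. By library the gated barcodes stood at 15.5, 466, 82.6 and 2.42 CPM and C1q macrophages at 0, 0, 239 and 0 CPM. The higher macrophage mean thus came from Panc02-SIY NT 3 alone. Barcodes gated on the neutrophil genes Csf3r and Cxcr2 had more Hp, at 235 CPM, and a like level of F13a1, at 104 CPM. Apoe, the apolipoprotein of lipid-handling macrophages, was lower, at 2699 against 7624 CPM, and Csf1r, the receptor for the macrophage growth factor, stood at 378 against 489 CPM. S100a8, an abundant neutrophil transcript, was at 6.59 CPM against 7849 in barcodes gated on Csf3r and Cxcr2, and the neutrophil genes Ly6g, Camp, Ngp and Stfa2l1 were at 0 in the gated barcodes of all 16 libraries. The summed level of 16 neutrophil genes ran from 227 to 700.3 CPM.

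Among genes outside the gate with at least 50 CPM, those whose level stood furthest above the highest of C1q macrophages, neutrophils and T cells were a mixture. Cd209a, a lectin of dendritic cells that derive from monocytes, averaged 84.5 CPM and was found in 45 barcodes. Cst3 (cystatin C), abundant in dendritic cells and other phagocytes, averaged 5428 CPM and was higher than in C1q macrophages in 14 of 14 libraries, as was Cbfa2t3 (a transcriptional corepressor) at 127 CPM. The same list held H2-DMb2, Ccl17, Ece1 and Gzmc. It also held the immunoglobulin genes Igkc and Ighg2c, which were found in 20 and 2 barcodes, and the collagen-binding proteoglycan Dcn, found in 6. The immunoglobulin transcripts sat mostly in Panc02-SIY RT 3, where 10 B and plasma cell genes summed to 8734 CPM, of which Igkc made 7857.

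The name held less well in one of the groups. Among the gated barcodes, 65 had at least 2 UMIs of Flt3, Zbtb46, Xcr1, Clec9a and Siglech, which mark conventional and plasmacytoid dendritic cells. Of the gated barcodes, 33 had at least 3 UMIs of 11 tumor and stromal genes. These 11 were Epcam, Krt8, Krt18, Krt19, Col1a1, Col1a2, Col3a1, Pecam1, Sparc, Dcn and Acta2. Epcam or Pecam1 was the most abundant of them in most libraries. The rule alone does not show that a barcode came from a tumor or stromal cell. One or both kinds of marker were present in 14 of 92 barcodes in MC38 NT, 15 of 97 in MC38 RT, 23 of 51 in Panc02-SIY NT and 35 of 166 in Panc02-SIY RT. These barcodes held 13.5%, 26.9%, 27.4% and 14.6% of the gated UMIs in the MC38 NT libraries and 43.1%, 27.4%, 16.8% and 20.6% in MC38 RT. In Panc02-SIY NT they held 65.8%, 50.03%, 53.4% and 81.0%, and in Panc02-SIY RT 18.6%, 21.8%, 34.1% and 32.2%. Every Panc02-SIY NT library lay above every Panc02-SIY RT library. The plot of monocyte shares and marker-bearing UMIs shows this for each library.

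The 17 Panc02-SIY NT barcodes with dendritic cell markers had no UMI of Chil3 and stood at 155 CPM of Lyz2, 130 of Ccr2 and 196 of Clec9a. The 28 barcodes of that group with neither kind of marker stood at 748 CPM of Chil3, 8633 of Lyz2, 924 of Ccr2 and 866 of Ly6c2. Over all groups, the dendritic-marker barcodes had 92.8 CPM of Chil3 and 302 of Ccr2, and the 319 barcodes without either kind had 820.3 and 1020.4. Chil3 and Lyz2 belong to the gate and Ccr2 does not, and Csf1r, which is also outside the gate, stood at 110.1 against 467 CPM. With each barcode thinned to 2000 UMIs, a UMI of the 5 dendritic cell genes was found in 5.49% of gated barcodes in MC38 NT, 3.13% in MC38 RT, 23.5% in Panc02-SIY NT and 9.70% in Panc02-SIY RT. In T cells, which should lack these genes, the thinned shares were 2.50%, 1.59%, 0.996% and 1.28%. Without thinning the shares were 23.9%, 17.5%, 47.1% and 22.9% in gated barcodes and 4.76%, 1.49%, 3.96% and 4.02% in T cells. For the 11 tumor and stromal genes, thinned counts are given for the library of each group with the most gated barcodes. They were 2 of 33 in MC38 NT 3, 1 of 42 in MC38 RT 4, 4 of 20 in Panc02-SIY NT 4 and 2 of 56 in Panc02-SIY RT 4. In T cells of the same libraries they were 1 of 12, 3 of 29, 93 of 1537 and 75 of 1068. UMIs of these 11 genes were thus found in T cells as well. In Panc02-SIY NT 4 the stromal gene Dcn stood at 720.5 CPM, and in Panc02-SIY NT 1 the epithelial keratin gene Krt18 stood at 411 CPM. Beyond these markers, the gated barcodes of the 16 libraries held between 89.7 and 2103 CPM of 15 T and NK cell genes, led by Ccl5 where highest. The values below are for all gated barcodes, called monocytes for short, and values without the marker-bearing barcodes are given beside many of them.

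**Figure D1:**
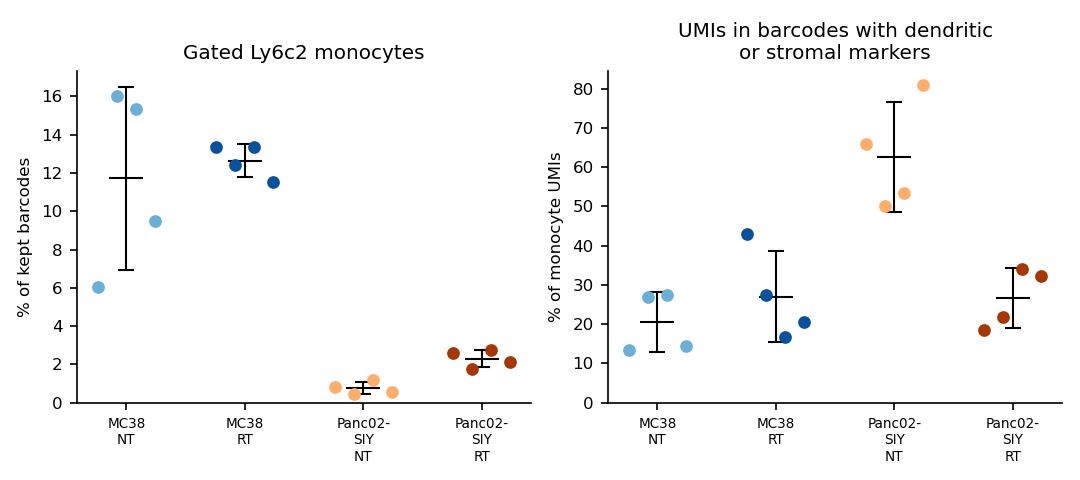
Monocytes as a percentage of kept barcodes, on the left, and the percentage of monocyte UMIs that sat in barcodes with dendritic cell or stromal markers, on the right, by group. Each point is 1 library and the bars are the mean ± SD of 4 libraries. The 4 Panc02-SIY RT libraries sit between 1.77% and 2.73% monocytes, above all 4 Panc02-SIY NT libraries, and the marker-bearing percentage is highest in Panc02-SIY NT.

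Monocytes took a larger share of kept barcodes after radiation in Panc02-SIY tumors, and no difference was found in MC38 tumors. In Panc02-SIY NT they were 0.818%, 0.479%, 1.18% and 0.572% of kept barcodes, and in Panc02-SIY RT 2.61%, 1.77%, 2.73% and 2.11%. The groups did not overlap. The means were 0.761 ± 0.311% and 2.30 ± 0.448% (SD, n = 4), a ratio of 3.03 and a difference of 1.54 percentage points (2-sided exact permutation test, p = 0.0286, adjusted over 5 comparisons 0.0476). The smallest p that 4 against 4 libraries allow is 0.0286. Without the marker-bearing barcodes the means were 0.459 ± 0.258% and 1.83 ± 0.354%, with the same adjusted p. With each barcode thinned to 1500 UMIs before the gate, which left out 510 shallower barcodes in Panc02-SIY NT and 350 in Panc02-SIY RT, the means were 0.856 ± 0.876% and 3.81 ± 0.830%, a ratio of 4.45 and a difference of 2.95 points (exact permutation test, adjusted p = 0.0476). Thinning also removes UMIs of the genes that keep a barcode out, and the thinned gate held 53 and 262 barcodes against 51 and 166. In the same Panc02-SIY libraries the share of T cells was 12.0 points lower after radiation (exact permutation test, p = 0.0286, adjusted 0.0357) and that of barcodes gated on Csf3r and Cxcr2 was 6.49 points higher (p = 0.0571, adjusted 0.112, exact permutation test), and these shares sum with that of monocytes to a common total. Taken as a share of monocytes and C1q macrophages together, monocytes made up 19.7 ± 10.6% in Panc02-SIY NT and 51.5 ± 8.74% in Panc02-SIY RT, for which the adjusted p was 0.0714 (exact permutation test).

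In MC38 NT the shares were 6.06%, 16%, 15.3% and 9.51%, and in MC38 RT 13.3%, 12.4%, 13.3% and 11.5%. The irradiated libraries lay inside the range of the untreated ones. The means were 11.7 ± 4.78% and 12.6 ± 0.876%, and the difference of 0.913 points was not separated from 0 (exact permutation test, p = 0.771, adjusted 0.816). Thinning to 1500 UMIs before the gate left out 59 barcodes in MC38 NT and 47 in MC38 RT and gave 8.86 ± 2.71% and 12.3 ± 4.78%, a difference of 3.41 points (exact permutation test, p = 0.229, adjusted 0.286). With every barcode entry kept the means were 10.5 ± 1.44% and 11.3 ± 1.15%. The radiation effect on the share did not pass the test for a difference between lines either (-0.629 points for MC38 minus Panc02-SIY, p = 0.816, exact permutation test). Monocytes were a larger share of CD45+ barcodes in MC38 than in Panc02-SIY, by 10.97 points untreated and 10.3 points irradiated (each p = 0.0286, adjusted 0.0476, exact permutation test). That order depended on the denominator. Among monocytes and C1q macrophages alone, monocytes made up 33.4% in MC38 NT against 19.7% in Panc02-SIY NT (adjusted p = 0.214, exact permutation test) and 38.9% in MC38 RT against 51.5% in Panc02-SIY RT (adjusted p = 0.0714, exact permutation test).

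Gene levels were then compared over sums of UMIs per library with edgeR's quasi-likelihood test, in the 14 libraries with at least 10 monocytes. Panc02-SIY NT 1 and 2 fell below that number and were left out, so untreated Panc02-SIY entered the gene tests with 2 libraries. The call rule was a fold change over 1.3 together with a p under 0.1 after Benjamini-Hochberg adjustment, and 9822 genes were tested. Below, "without marker-bearing barcodes" means a second fit in which those barcodes were removed and libraries with at least 5 monocytes were used, which left out Panc02-SIY NT 1 and tested 8224 genes.

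In MC38 tumors few genes were called between irradiated and untreated monocytes, and some of them belonged to the p53 response. The call rule was met by 13 of 9822 genes (0.132%), 10 higher (0.102%) and 3 lower (0.0305%). Of 33 tested genes of the p53 list, 4 rose and 0 fell, 23 had a positive log2 fold change, and the median was 0.55 against -0.01 over all genes tested. Without marker-bearing barcodes 8 of 8224 genes were called (0.0973%, or 0.0486% in each direction), of which 6 were among the 13, and 2 of 30 p53 genes rose with a median of 0.55.

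Phlda3, a p53 target that restrains AKT signaling, rose. It lies on chromosome 1 from 135766119 to 135769136, on the plus strand, in GRCm38. Its level was 0, 4.64, 3.70 and 4.33 CPM in the MC38 NT libraries and 80.6, 26.7, 31.7 and 41.7 CPM in MC38 RT. Every irradiated library lay above every untreated one. The log2 fold change was 3.45 ± 0.60 (SE), or 10.9-fold (edgeR, adjusted p = 0.00862), and 3.35 without marker-bearing barcodes (edgeR, adjusted p = 0.0168). A UMI of Phlda3 was found in 29 of 97 monocytes of MC38 RT against 5 of 92 in MC38 NT, and in 6.25% against 0% after thinning to 2000 UMIs. The gene was also found in 19 of 67 T cells of MC38 RT against 2 of 42 in MC38 NT. In C1q macrophages of the same libraries it stood at 4.29, 2.76, 10.4 and 0.486 CPM untreated and 39.8, 123, 80.2 and 55.5 CPM irradiated, so its higher level was seen in 3 populations of irradiated MC38 tumors.

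Ccng1 (cyclin G1, a p53 target that feeds back on MDM2) stood at 47.1, 25.5, 30.8 and 23.8 CPM in MC38 NT and at 219, 113, 79.1 and 87.3 CPM in MC38 RT. The groups did not overlap, and the log2 fold change was 1.93 ± 0.29 (edgeR, adjusted p = 0.00127) and 1.42 without marker-bearing barcodes (adjusted p = 0.0656). Cdkn1a, the p21 inhibitor of the cell cycle, stood at 556, 499, 491 and 485 CPM untreated and at 2113, 884, 1016 and 993 CPM irradiated. MC38 RT 1 was far above the other irradiated libraries, all of which lay above the untreated ones. The log2 fold change of Cdkn1a was 1.31 ± 0.24 (edgeR, adjusted p = 0.0499), and 1.22 without marker-bearing barcodes, where it was not called (adjusted p = 0.334). Bax, which opens the mitochondrial membrane in apoptosis, stood at 254, 262, 289 and 193 CPM untreated and at 535, 484, 345 and 392 CPM irradiated, a log2 fold change of 0.81 ± 0.18 (edgeR, adjusted p = 0.087; without marker-bearing barcodes 0.66 and 0.716). Mdm2, the ubiquitin ligase of p53, did not pass the test, at 37.7, 76.5, 49.3 and 45.5 CPM against 265, 70.03, 69.6 and 111 CPM (edgeR, adjusted p = 0.693).

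Outside the p53 list, Thbs1 (thrombospondin 1, a matrix protein made by monocytes and platelets) stood at 160, 225, 281 and 301 CPM in MC38 NT and at 656, 310.1, 416 and 611 CPM in MC38 RT. The lowest irradiated library lay just above the highest untreated one. Its log2 fold change was 1.04 ± 0.22 (edgeR, adjusted p = 0.0586), and 1.10 without marker-bearing barcodes (adjusted p = 0.0775). Socs1, the interferon-induced inhibitor of JAK kinases (log2 fold change 2.44, edgeR adjusted p = 0.0171), the glucocorticoid- and stress-responsive Ddit4 (2.04, 0.073) and the kinase gene Sgk1 (0.95, 0.0597) were called as well, as was Gm42047, a gene model with no assigned function (2.49, 0.00421). None of these 4 was called without marker-bearing barcodes, where the log2 fold changes were 2.54 for Socs1, 1.81 for Ddit4, 0.66 for Sgk1 and 2.78 for Gm42047 (edgeR, adjusted p = 0.300, 0.300, 1.00 and 0.334). Gimap6, a GTPase gene of lymphocytes, had 0 UMIs in MC38 NT and 32 in MC38 RT, of which 18 were in MC38 RT 3, at least 10.9-fold higher against a floor of 3 UMIs over the group, and it was not tested without marker-bearing barcodes.

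The 3 genes that fell in MC38 were Tmem176b, Tmem176a and Hpgd. Tmem176b and Tmem176a encode related membrane proteins that are abundant in dendritic cells and monocytes. They lie side by side on chromosome 6 in GRCm38, Tmem176b from 48833818 to 48841496 on the minus strand and Tmem176a from 48840919 to 48847071 on the plus strand, so that they overlap over a short stretch. Tmem176b stood at 268, 155, 185 and 179.6 CPM in MC38 NT and at 69.1, 30.01, 38.0 and 52.1 CPM in MC38 RT. The groups did not overlap, and the log2 fold change was -2.04 ± 0.25 (edgeR, adjusted p = 4.66e-05) and -2.43 without marker-bearing barcodes (adjusted p = 5.17e-06). Tmem176a stood at 146, 62.6, 71.6 and 71.4 CPM untreated and at 34.5, 16.7, 4.75 and 27.4 CPM irradiated, again without overlap, with a log2 fold change of -2.07 ± 0.41 (edgeR, adjusted p = 0.0586) and -3.11 without marker-bearing barcodes (adjusted p = 1.17e-05).

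Hpgd, the dehydrogenase that inactivates prostaglandins, stood at 18.8, 27.8, 39.5 and 6.49 CPM in MC38 NT, which were 51 UMIs. In MC38 RT it had 1 UMI over all 4 libraries. The ratio of the group levels was 49.9, with an exact 95% counting interval from 8.55 to 2007, and edgeR's adjusted p was 0.0499 (0.0755 without marker-bearing barcodes). With every shared barcode entry of MC38 kept, 5 genes were called, among them Phlda3 (2.23, edgeR adjusted p = 0.0919), Ccng1 (1.21, 0.0223), Tmem176b (-1.68, 5.62e-05) and Tmem176a (-1.74, 0.0919), while Cdkn1a (0.81, 0.139), Bax (0.53, 0.458), Thbs1 (0.71, 0.112) and Hpgd (-3.15, 0.382) were not.

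**Figure D2:**
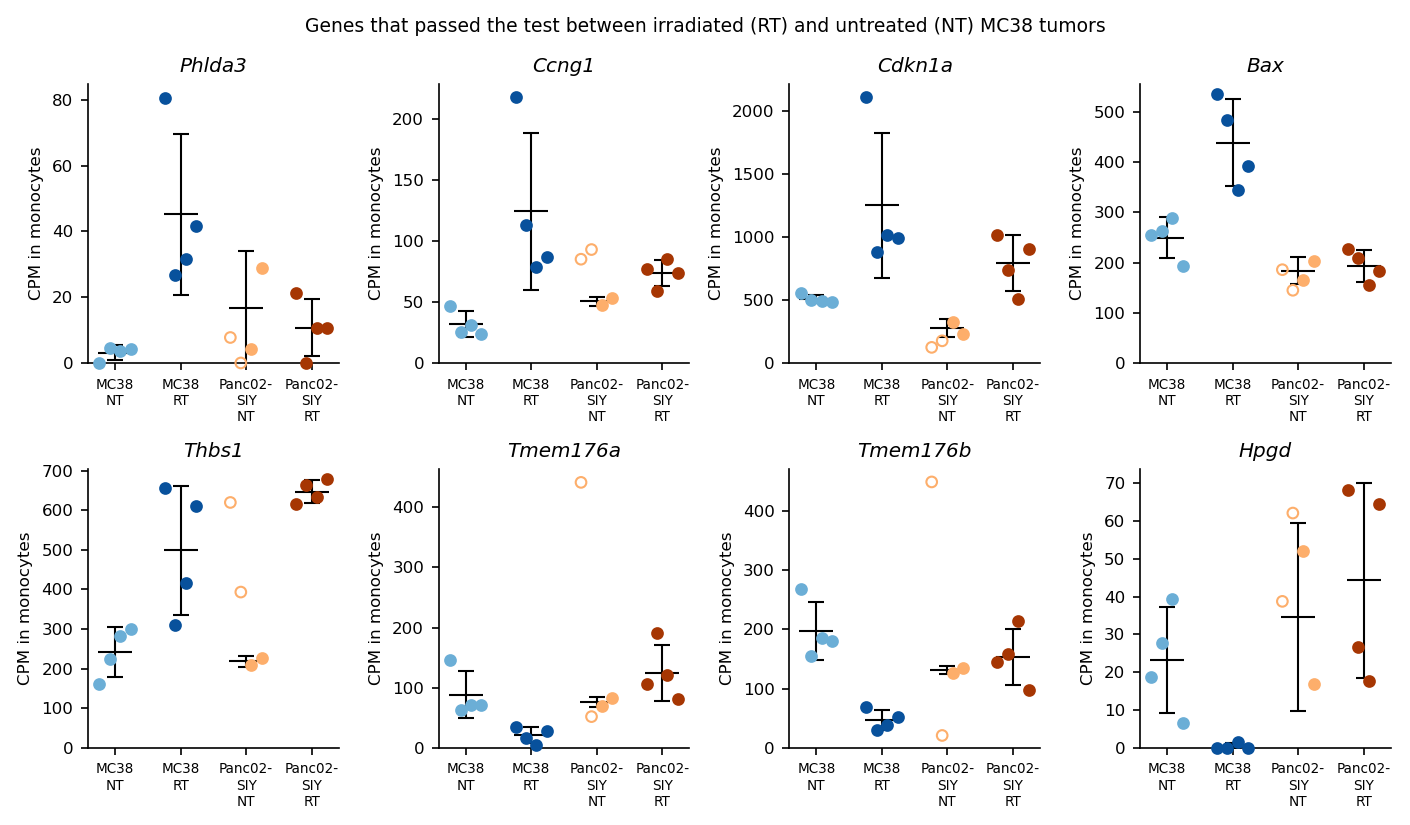
Levels in CPM of 8 genes in monocytes by library, in MC38 NT, MC38 RT, Panc02-SIY NT and Panc02-SIY RT. Each point is 1 library, open circles are the 2 Panc02-SIY NT libraries that were left out of the gene test, and bars are the mean ± SD of the tested libraries. For Phlda3 the MC38 RT libraries sit at 26.7 CPM or above and the MC38 NT libraries at 4.64 or below, and for Tmem176b the MC38 RT libraries sit at 69.1 or below and the MC38 NT libraries at 155 or above.

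The other gene lists are described by their medians, because with 0.132% of all genes called a count of 0 in a list of this size says little about the list. Of 55 interferon-stimulated genes 0 were called, 45 had a positive log2 fold change and the median was 0.22. The medians were 0.18 over 20 genes of MHC class I, -0.15 over 10 of class II, 0.15 over 19 chemokine receptors and adhesion genes and -0.03 over 12 Fc receptors and adaptors, with 0 called in each.

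The mitosis list and the list of T and NK cell genes had higher medians, and many of their UMIs sat in single barcodes, while the medians of 13 dendritic cell genes (-0.52, and -0.28 over the 6 tested without marker-bearing barcodes), of 17 S phase genes (-0.42) and of 3 B and plasma cell genes (-0.59, and -0.32 with a member at 0 UMIs placed at its bound) were below 0. For mitosis, 0 of 20 genes were called and all 20 had a positive log2 fold change, with a median of 1.69, and of 0.39 over the 9 tested without marker-bearing barcodes. Summed, these genes stood at 876, 784, 1047 and 929 CPM in MC38 NT and at 829, 3401, 737 and 1420.1 CPM in MC38 RT. Only MC38 RT 2 and 4 lay above the untreated libraries, and in them a single barcode held 803 of 1020 and 448 of 1090 UMIs. Of 15 T and NK cell genes 11 were tested and 0 called, 9 had a positive log2 fold change and the median was 3.30, and 2.33 over the 5 tested without marker-bearing barcodes. The whole list summed to 744, 172, 499.6 and 1084 CPM in MC38 NT and to 1578, 367, 946 and 2103 CPM in MC38 RT, with the chemokine gene Ccl5 the most abundant member and Cd4 at 0 in all 8 libraries. Without Ccl5, which myeloid cells express too, the sums were 33.0, 48.7, 7.402 and 49.8 CPM untreated and 17.3, 36.7, 426 and 1105 CPM irradiated. MC38 RT 3 and 4 were thus the high libraries, and in them 1 barcode held 239 of 269 and 480 of 848 of these UMIs. The granzyme gene Gzmc of cytotoxic lymphocytes had 2097 UMIs in MC38 RT 4, of which 2089 sat in 1 barcode, and 17 of the 18 UMIs of Gimap6 in MC38 RT 3 sat in 1 barcode. Each of these single barcodes also bore dendritic cell or stromal markers and was absent from the second fit, in which Phlda3 and Ccng1 were called. The 6 tumor and stromal genes tested had a median of 0.52, or 0.22 with members at 0 UMIs placed at their bound. Summed, the 11 listed genes stood at 28.3, 23.2, 39.5 and 39.0 CPM in MC38 NT. In MC38 RT they stood at 63.3, 66.7, 66.5 and 46.9 CPM, without overlap. Epcam was the most abundant member in the MC38 RT libraries, at 17.3, 43.4, 28.5 and 20.8 CPM. Krt8 and Krt19 were at 0 in all 8 MC38 libraries. Without marker-bearing barcodes, which the 11 genes helped to define, the sums overlapped, at 20.3 to 27.2 CPM untreated and 13.1 to 30.3 irradiated. Over all gated barcodes 568 genes had an unadjusted p under 0.05 by edgeR, and DESeq2 called 19 genes.

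In Panc02-SIY tumors many genes were called between irradiated and untreated monocytes, and nearly all of these calls were lost without the marker-bearing barcodes. The call rule was met by 745 of 9822 genes (7.59%), 426 higher (4.34%) and 319 lower (3.25%). RLE scaling changed the split to 393 higher and 389 lower, and thinning each barcode to 2000 UMIs left 47 of 4792 genes called. Without marker-bearing barcodes 1 gene was called (0.0122% of 8224), and it was among the 745. Of 681 of the genes called first that were also tested in the fit without marker-bearing barcodes, 586 had a log2 fold change of the same sign there and 95 of the opposite sign. In that fit the untreated group rested on 3 libraries with 6, 11 and 7 barcodes. With every barcode entry kept 1120.0 genes were called in the fit over all gated barcodes. That setting held the same 217 gated barcodes of Panc02-SIY, and 803 entries in place of 189 in MC38. Its count is therefore no check on the Panc02-SIY barcodes. In simulated data of the first fit's size, the test recovered 10% of the changes of 2-fold and 54% of those of 4-fold. The fit without marker-bearing barcodes was not simulated, and the cause of its lost calls was not tested.

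Genes of classical monocytes were higher after radiation over all gated barcodes. Of 26 such genes, 14 rose and 0 fell, with a median log2 fold change of 1.02, against 0 called of 25 and a median of 0.19 without marker-bearing barcodes, where the median of all genes tested was 0.18. The macrophage and neutrophil lists had medians of the same size, while the median of nonclassical monocyte genes was 0.12, or 0.00494 with the member at 0 UMIs placed at its bound, and that of dendritic cell genes -0.96. Macrophage genes had a median of 1.02, with 5 of 23 risen, and 0.56 without marker-bearing barcodes. Neutrophil genes had a median of 1.13, with 0 of 9 called, and 0.34 without those barcodes. The median of 11 T and NK cell genes was 0.73, or 0.61 with members at 0 UMIs placed at their bound. That of 6 tumor and stromal genes was -1.88. For chemokines and cytokines, of which 5 of 27 rose, the median was 1.46, 1.17 with members at 0 UMIs placed at their bound, and 0.83 without marker-bearing barcodes. Vcan stood at 15.5, 155, 21.7 and 21.8 CPM in the Panc02-SIY NT libraries and at 158, 139.8, 108 and 163 CPM in Panc02-SIY RT. One untreated library, which was not in the gene test, lay among the irradiated ones. The log2 fold change was 2.65 ± 0.44 (edgeR, adjusted p = 0.000665), and 0.40 without marker-bearing barcodes (adjusted p = 0.898). F13a1 stood at 15.5, 466, 82.6 and 2.42 CPM untreated and at 320.3, 298, 240.1 and 257 CPM irradiated, a log2 fold change of 2.97 (edgeR, adjusted p = 0.0105) and 0.22 without marker-bearing barcodes. Ccr2 stood at 302, 890.0, 556 and 189 CPM untreated and at 918, 1065, 850.1 and 933 CPM irradiated, with log2 fold changes of 1.36 (edgeR, adjusted p = 0.0103) and 0.19 (adjusted p = 0.913). For these 3 genes the untreated library Panc02-SIY NT 2 was at the irradiated level or above, and it was among the libraries with too few monocytes for the test.

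The high-affinity IgG receptor Fcgr1 stood at 46.5, 103, 65.2 and 55.6 CPM untreated and at 192, 298, 126 and 283 CPM irradiated. The groups did not overlap. The log2 fold change was 1.88 (edgeR, adjusted p = 0.00121) and 1.15 without marker-bearing barcodes (adjusted p = 0.481). Itgam, the CD11b integrin of myeloid cells, had log2 fold changes of 2.10 (edgeR, adjusted p = 7.88e-05) and 0.44, and Lilr4b, an inhibitory receptor, of 2.10 (adjusted p = 3.05e-05) and 0.82 (adjusted p = 0.556). Of 55 interferon-stimulated genes 22 rose, 0 fell, and all 55 had a positive log2 fold change, with a median of 1.09. Without marker-bearing barcodes 0 were called, 49 were positive and the median was 0.40. Ifit2, an antiviral effector of that list, stood at 0, 31.0, 60.9 and 21.8 CPM untreated and at 154, 226, 116 and 217 CPM irradiated, with log2 fold changes of 2.22 (edgeR, adjusted p = 0.00157) and 2.03 without marker-bearing barcodes (adjusted p = 0.243).

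Cdkn1a stood at 124, 176, 326 and 227 CPM in Panc02-SIY NT and at 1021, 735, 509 and 904 CPM in Panc02-SIY RT. The groups did not overlap, and the log2 fold changes were 1.5 (edgeR, adjusted p = 0.0125) and 0.69 without marker-bearing barcodes (adjusted p = 0.713). Phlda3 was not called in this tumor, at 7.75, 0, 4.35 and 29.0 CPM against 21.4, 0, 10.7 and 10.8 CPM, a log2 fold change of -0.93 ± 0.70 (edgeR, adjusted p = 0.523). Without marker-bearing barcodes the direction turned, to 1.05 ± 1.51 (edgeR, adjusted p = 0.933), and all 12 UMIs of Phlda3 in Panc02-SIY NT 4 sat in marker-bearing barcodes. It was found in 8 of 166 monocytes of Panc02-SIY RT and 5 of 51 of Panc02-SIY NT. In the T cells of the same tumors it was found in 576 of 2839 against 41 of 3532, and in C1q macrophages it stood at 44.9, 19.6, 14.2 and 13.4 CPM irradiated against 0, 0, 0 and 1.43 CPM untreated. Of 33 p53 genes tested in Panc02-SIY monocytes, 2 rose and 0 fell, where 4.34% of all genes rose, and the median was 0.29. Without marker-bearing barcodes 0 of 30 were called and the median was 0.18, as was that of all genes tested.

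The genes that fell in Panc02-SIY included genes of dendritic cells, antigen presentation and the cell cycle. Of 13 dendritic cell genes 4 fell and 0 rose. Xcr1, the chemokine receptor of cross-presenting dendritic cells, stood at 0, 103, 317 and 314 CPM untreated and at 4.27, 0, 12.4 and 36.9 CPM irradiated, a log2 fold change of -4.22 (edgeR, adjusted p = 0.0195), and Clec9a (-2.59), Zbtb46 (-2.08) and Flt3 (-1.70) fell with it. These genes defined the marker-bearing barcodes and were not tested without them. H2-Ab1, the beta chain of MHC class II, stood at 1913, 3384, 4287 and 5580.1 CPM untreated and at 2566, 2466, 2052 and 2161 CPM irradiated. The untreated library with the lowest level lay below all irradiated ones and was not in the gene test. The log2 fold change was -1.14 (edgeR, adjusted p = 0.00157) and -0.10 without marker-bearing barcodes (adjusted p = 0.992). Of 10 class II genes, 4 fell and 1 rose, with a median of -0.94, against 0.13 without those barcodes. Of 17 S phase genes 8 fell, led by the chromatin remodeler Hells (log2 fold change -3.04, adjusted p = 0.00119, and -1.75 without marker-bearing barcodes, adjusted p = 0.81, edgeR), and 4 of 20 mitosis genes fell. In the tested libraries Panc02-SIY NT 3 and 4, a single marker-bearing barcode held 493 of 624 and 806 of 1105 UMIs of the mitosis genes. In the irradiated library Panc02-SIY RT 3 such a barcode held 852 of 1082.

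The gene that was called with and without the marker-bearing barcodes was Sdc4, the heparan sulfate proteoglycan syndecan 4. It is named here because it was the only such gene, and was chosen after its values were seen. It stood at 170.4, 10.3, 86.9 and 99.1 CPM in Panc02-SIY NT and at 427, 405, 334 and 389 CPM in Panc02-SIY RT. The irradiated libraries all lay above the untreated ones, also without marker-bearing barcodes, where the levels were 22.7, 20.7, 168 and 50.9 CPM against 509, 335, 391 and 344 CPM. Those untreated levels were 1, 1, 18 and 4 UMIs, and Panc02-SIY NT 1 was not in that fit. The log2 fold change was 2.00 ± 0.26 (edgeR, adjusted p = 4.93e-05) and 2.12 ± 0.36 without marker-bearing barcodes (adjusted p = 0.00379). In MC38 it was not called, with a log2 fold change of 0.53 ± 0.19 (edgeR, adjusted p = 0.655). Il1b, the inflammatory cytokine, showed the opposite behavior in Panc02-SIY. It stood at 666, 1138, 1252 and 1521 CPM untreated and at 2016, 2562, 2355 and 3182 CPM irradiated, a log2 fold change of 0.84 (edgeR, adjusted p = 0.0133), and of -0.04 without marker-bearing barcodes.

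**Figure D3:**
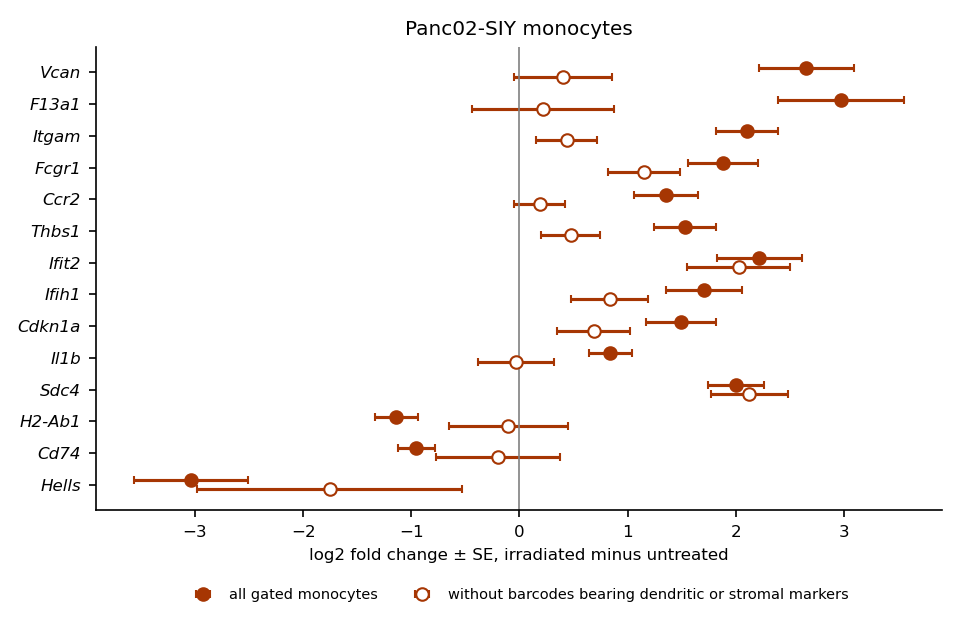
Log2 fold changes of 14 genes between Panc02-SIY RT and Panc02-SIY NT monocytes, as fitted by edgeR, with bars for ± 1 SE. Filled points are all gated barcodes and open points are the fit without barcodes bearing dendritic cell or stromal markers. Vcan moves from 2.65 to 0.40 and H2-Ab1 from -1.14 to -0.10 between the fits, and Sdc4 stays near 2 in both.

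The comparisons between the tumors had the largest counts of called genes in the fit over all gated barcodes. Untreated, 1369 of 9822 genes (13.9%) differed between MC38 and Panc02-SIY monocytes, 735 higher (7.48%) and 634 lower (6.45%) in MC38. After radiation 2185 genes (22.2%) differed, 1147 higher (11.7%) and 1038 lower (10.6%). The counts within gene lists below are to be read against these shares of all genes. Without marker-bearing barcodes 907 of 8224 genes (11%) were called untreated, 611 higher (7.43%) and 296 lower (3.6%). After radiation 2036 (24.8%) were called in that fit, 1088 higher (13.2%) and 948 lower (11.5%). With every barcode entry kept, 1848 and 2945 genes were called. Without Panc02-SIY NT 4 the untreated count was 577, and with each barcode thinned to 2000 UMIs the counts were 196 and 504 of 4792 genes. The comparisons before and after radiation used different libraries. Both called 678 genes, 49.5% of the untreated and 31.0% of the irradiated list, of which 656 had the same direction (397 higher, 259 lower) and 22 the opposite. Without marker-bearing barcodes 675 were called in both, 74.4% and 33.2% of the lists, and all had the same direction. In all 4 of these fits 251 genes were higher and 117 lower in MC38, and the genes described next were among them unless said otherwise. The tumor lines differ in tissue of origin, antigen, sequencing depth and barcode sharing, so the part of each in these differences cannot be told apart.

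About as many macrophage genes were called higher in MC38 monocytes as passed no test. Of 23 tested, 11 were higher and 0 lower untreated, and 12 were higher and 2 lower after radiation. Untreated, the medians of other lists were -2.31 for tumor and stromal, -1.26 for T and NK cell and -1.24 for dendritic cell genes. Irradiated, they were 0.37, 1.31 and -0.26 in the same order. The medians untreated and irradiated were -3.07 and 0.91 for mitosis genes and -0.03 and 0.33 for neutrophil genes. The C1q genes were limited by the gate, so their levels inside it are given as a description only and not as part of this result. The median barcode had 0.216 C1q UMIs per 1000 in MC38 NT against 0.0514 in Panc02-SIY NT, and 0.231 in MC38 RT against 0 in Panc02-SIY RT, and C1qb averaged 259 and 79.8 CPM in the untreated groups. Apoe stood at 6886, 3701, 3538 and 6069 CPM in MC38 NT against 651, 621, 656 and 116 in Panc02-SIY NT, a log2 difference of 3.95 (edgeR, adjusted p = 0.00554). After radiation it stood at 5021, 2971, 2136 and 4402 CPM against 752, 681, 466 and 395, a difference of 2.93 (edgeR, adjusted p = 0.00254). No Panc02-SIY library reached an MC38 library in either state. Trem2, a lipid receptor of tumor macrophages, was higher by 4.67 untreated and 3.27 irradiated (edgeR, adjusted p = 4.5e-07 and 6.71e-08), and the lysosomal protease gene Lgmn by 3.76 and 1.57. Ms4a7, a membrane protein gene of macrophages, had 489 UMIs in MC38 NT and 3 in the tested Panc02-SIY NT libraries, a ratio of 54.8 with a counting interval from 18.6 to 266. Tmem119, better known from microglia, had 66 and 71 UMIs in MC38 NT and RT and none in Panc02-SIY, at least 7.39-fold and 22.5-fold higher against a floor of 3 UMIs over the Panc02-SIY group. Cd68, Ctsd and Ctsl completed the 8 macrophage genes that were higher in all 4 fits.

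Genes of glycolysis and the response to hypoxia were the next group. Of 25 tested, 15 were higher and 1 lower in MC38 untreated, and 14 were higher and 0 lower irradiated, and 11 were higher in all 4 fits. Aldoa (aldolase) stood at 636, 953, 822 and 844 CPM in MC38 NT against 232, 217, 199.98 and 218 in Panc02-SIY NT, a log2 difference of 2.14 (edgeR, adjusted p = 1.36e-06). Irradiated, it stood at 679, 800.3, 1065 and 917 CPM against 226, 315, 229 and 353, a difference of 1.85 (edgeR, adjusted p = 6.71e-08). The lowest MC38 library lay above the highest Panc02-SIY library in both states. Mif, a cytokine gene induced in hypoxia, was higher by 1.74 and 1.89, the enolase gene Eno1 by 2.14 and 1.53, and Gapdh by 1.51 and 1.80. Slc2a1, the glucose transporter, and Vegfa, the angiogenic growth factor, were among the 11 as well.

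Many interferon-stimulated genes were also higher in MC38. Of 55 tested, 30 were higher and 0 lower untreated, and 22 were higher and 5 lower irradiated, against 17 and 1, and 24 and 6, without marker-bearing barcodes. Rtp4, an interferon-induced gene, stood at 306, 318, 225 and 279 CPM in MC38 NT against 54.2, 72.4, 109 and 50.8 in Panc02-SIY NT, a log2 difference of 2.07 (edgeR, adjusted p = 2.16e-05). After radiation it stood at 288, 420.2, 282 and 293 CPM against 128, 196, 128 and 167, a difference of 1.27 (edgeR, adjusted p = 6.32e-05), again without overlap. Bst2, which tethers budding viruses to the cell, was higher by 1.41 and 1.45 and Phf11d by 2.88 and 1.61. Irf7, the transcription factor that amplifies type I interferon, and its targets Oas1a, Oasl1, Ifit3 and Usp18 were among the 15 genes of the list that were higher in all 4 fits. Isg15, the ubiquitin-like modifier, was higher by 1.47 (edgeR, adjusted p = 0.0629) and 1.02 (adjusted p = 0.0572), and was not called untreated without marker-bearing barcodes (0.86, adjusted p = 0.328). Of the interferon gamma list, Gbp5 (-1.24 and -1.71) and the transcription factor Irf1 were lower in MC38 in all 4 fits, and Fcgr1 was higher (3.39 and 1.75). Of the 31 tested genes of that list, 2 were higher and 5 lower in MC38 untreated, and 6 were higher and 11 lower irradiated. The medians were -0.28 untreated and -0.34 irradiated. Of all 9822 genes, 735 were higher and 634 lower untreated, and 1147 were higher and 1038 lower irradiated. The difference between this list and the interferon-stimulated genes was not tested.

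Many antigen presentation genes were higher in MC38 after radiation. Of 10 MHC class II genes tested, 7 were higher and 1 lower in MC38 untreated and 9 higher and 1 lower irradiated, and Ctss, H2-DMa, H2-DMb1 and H2-Eb1 were higher in all 4 fits. H2-Ab1 was higher by 0.62 untreated (edgeR, adjusted p = 0.0636), where it was not called without marker-bearing barcodes, and by 1.54 irradiated (adjusted p = 5.3e-07). Of 20 class I genes, 7 were higher and 1 lower untreated and 12 higher and 0 lower irradiated.

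Of 19 chemokine receptor and adhesion genes, 9 were higher and 3 lower in MC38 untreated and 5 higher and 4 lower irradiated, with median log2 differences of 0.45 and 0.19. Over all 9822 genes tested, the counts were 735 higher and 634 lower untreated and 1147 higher and 1038 lower irradiated. Of 27 chemokines and cytokines, 11 were higher and 0 lower untreated and 9 higher and 1 lower irradiated, with medians of 1.87 and 0.59. Cxcl16, the membrane chemokine that binds CXCR6 on T cells, stood at 725, 591, 544 and 729 CPM in MC38 NT against 46.5, 114, 126 and 99.1 in Panc02-SIY NT. After radiation it stood at 795, 737, 536 and 515 CPM against 51.2, 122, 83.6 and 159.8. The log2 differences were 2.71 and 2.77 (edgeR, adjusted p = 5.98e-06 and 4.73e-08). F11r, a junctional adhesion molecule, was higher by 3.52 and 2.90. Itga4, the alpha chain of VLA-4 by which monocytes bind VCAM-1, was lower in MC38, at 98.9, 114, 64.1 and 193 CPM against 155, 362, 583 and 426 untreated and at 138, 107, 111 and 106 against 534, 488, 557 and 515 irradiated. One MC38 NT library lay above the lowest Panc02-SIY NT library, which was not in the gene test, and the irradiated groups did not overlap. The differences were -1.92 and -1.97 (edgeR, adjusted p = 9.9e-06 and 3.95e-07). Itgal, the alpha chain of LFA-1, was lower by 1.61 and 2.27 on the log2 scale.

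Among genes of nonclassical monocytes, the patrolling kind, some were lower in MC38 and most passed no test. Of 14 such genes, 1 was higher and 4 were lower untreated, with a median log2 difference of -1.30, and 0 were higher and 6 lower irradiated, with a median of -0.92. Ace (angiotensin-converting enzyme, -2.51 and -2.84), the adhesion receptor Adgre4 (-2.82 and -3.53), the sialophorin gene Spn (-1.96 and -1.43) and Itgal were lower in all 4 fits.

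The classical monocyte genes Vcan, F13a1 and Ccr2 depended on the barcodes used in the untreated tumors. Vcan differed by 0.14 untreated over all gated barcodes (edgeR, adjusted p = 0.908), by -1.81 without marker-bearing barcodes (adjusted p = 0.0354) and by -2.34 after radiation (adjusted p = 4.26e-06). F13a1 went the same way, at 0.39, -2.29 (edgeR, adjusted p = 0.0958) and -2.05 (adjusted p = 0.00221). Ccr2 was higher by 1.48 in MC38 untreated (edgeR, adjusted p = 0.00208), by 0.30 without marker-bearing barcodes (adjusted p = 0.483), and differed by -0.01 after radiation (adjusted p = 0.985). The levels of these genes in untreated Panc02-SIY were therefore not settled by the gate alone.

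**Figure D4:**
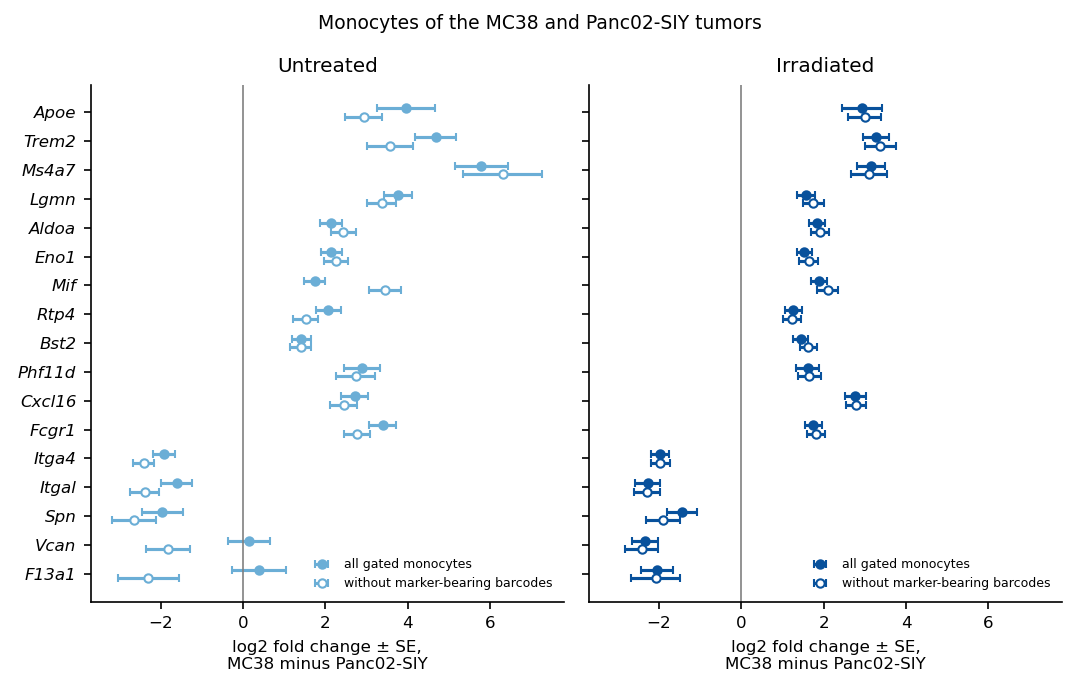
Log2 differences of 17 genes between MC38 and Panc02-SIY monocytes, untreated on the left and irradiated on the right, as fitted by edgeR, with bars for ± 1 SE. Filled points are all gated barcodes and open points the fit without barcodes bearing dendritic cell or stromal markers. Apoe, Trem2, Aldoa, Rtp4 and Cxcl16 sit above 0 and Itga4, Itgal and Spn below 0 in both panels, while untreated Vcan sits at 0.14 in one fit and -1.81 in the other.

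The difference between the radiation responses of the lines was tested as an interaction. Over all gated barcodes 188 genes (1.91%) were called, 70 higher (0.713%) and 118 lower (1.2%) in MC38. With every barcode entry kept 368 were called, and with each barcode thinned to 2000 UMIs 3 of 4792. Without marker-bearing barcodes 2 genes (0.0243%) were called. These 2 were Tmem176a, with a difference of -2.71 on the log2 scale (edgeR, adjusted p = 0.0430) and -3.96 without marker-bearing barcodes (adjusted p = 0.00024), and Tmem176b, at -2.23 (adjusted p = 0.00439) and -2.46 (adjusted p = 0.0136). In Panc02-SIY, Tmem176b stood at 449, 20.7, 126 and 135 CPM untreated and at 145, 158, 213 and 98.3 CPM irradiated, and Tmem176a at 441, 51.7, 69.6 and 82.2 CPM against 107, 190.4, 121 and 81.4 CPM. The Panc02-SIY groups overlapped for both genes, whereas in MC38 they did not. Phlda3 differed by 4.38 over all gated barcodes (edgeR, adjusted p = 0.0348) and by 2.31 without marker-bearing barcodes (adjusted p = 0.952).

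The response of monocytes was last set against that of C1q macrophages of the same libraries. The values in this comparison are differences between 2 responses, not levels. In MC38, 50 of 10602 genes (0.472%) responded differently, 35 higher in monocytes (0.33%) and 15 lower (0.141%). Without marker-bearing barcodes these were 26 of 9459 (0.275%), 19 higher (0.201%) and 7 lower (0.074%), and 16 genes were called in both fits. Il1b was among them, with a difference of -1.13 ± 0.17 on the log2 scale (edgeR, adjusted p = 0.00022) and -1.35 without marker-bearing barcodes (adjusted p = 5.56e-05). In monocytes it stood at 5600.0, 4070.4, 4193 and 4238 CPM untreated and at 4117, 3295, 3928 and 4189 irradiated. In macrophages it stood at 2232, 1708, 1635 and 2062 CPM untreated and at 3923, 3337, 3132 and 3672 irradiated. The macrophage levels were all higher after radiation and came close to those of monocytes, whose groups overlapped.

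Isg20, an interferon-induced exonuclease, stood at 80.1, 153, 96.2 and 93.1 CPM in MC38 NT monocytes and at 34.5, 170.1, 159.8 and 106 in MC38 RT monocytes. In macrophages it stood at 39.4, 20.7, 21.7 and 21.4 CPM and at 39.8, 101, 80.2 and 63.0 CPM. The difference was -1.33 (edgeR, adjusted p = 0.0739) and -1.69 without marker-bearing barcodes (adjusted p = 0.00928). Of 55 interferon-stimulated genes, 4 responded less in monocytes and 0 more, and 5 and 0 without marker-bearing barcodes. For Ccl8, a chemokine gene, the difference had the other sign, at 3.63 (edgeR, adjusted p = 0.0265). In macrophages it stood at 315, 621, 205 and 106 CPM untreated and at 19.9, 30.3, 55.7 and 20.04 irradiated. In monocytes it stood at 18.8, 11.6, 7.402 and 4.33 CPM untreated and at 5.76, 33.3, 4.75 and 13.03 irradiated. These monocyte levels overlapped and rested on 10 UMIs or fewer per library, so the difference reflects lower macrophage levels after radiation.

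Genes of mitosis differed in the direction of monocytes, 8 of 20 higher and 0 lower with and without marker-bearing barcodes. Birc5 (survivin), which acts in chromosome segregation, stood at 163, 51.0, 111 and 81.6 CPM in MC38 NT macrophages and at 13.3, 13.5, 8.15 and 5.15 in MC38 RT macrophages. In monocytes it stood at 4.71, 6.96, 12.3 and 12.99 CPM untreated and at 17.3, 110.0, 4.75 and 31.3 irradiated. The gap between responses was 5.22 (edgeR, adjusted p = 0.003) and 3.65 without marker-bearing barcodes (adjusted p = 0.00674), and the groups of macrophage libraries were the ones that did not overlap. In MC38 RT 2, 30 of the 33 monocyte UMIs of Birc5 sat in 1 marker-bearing barcode. With every shared barcode entry kept, or with each barcode thinned to 2000 UMIs, 0 genes were called in this comparison by edgeR (465 and 234 genes at an unadjusted p under 0.05), while DESeq2 called 22 genes. In Panc02-SIY 74 of 10602 genes (0.698%) were called, 57 higher in monocytes (0.538%) and 17 lower (0.16%), and 224 with every barcode entry kept. None of them was among the 14 (0.148% of 9459) called without marker-bearing barcodes, which were 5 higher (0.0529%) and 9 lower (0.0951%).

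**Figure D5:**
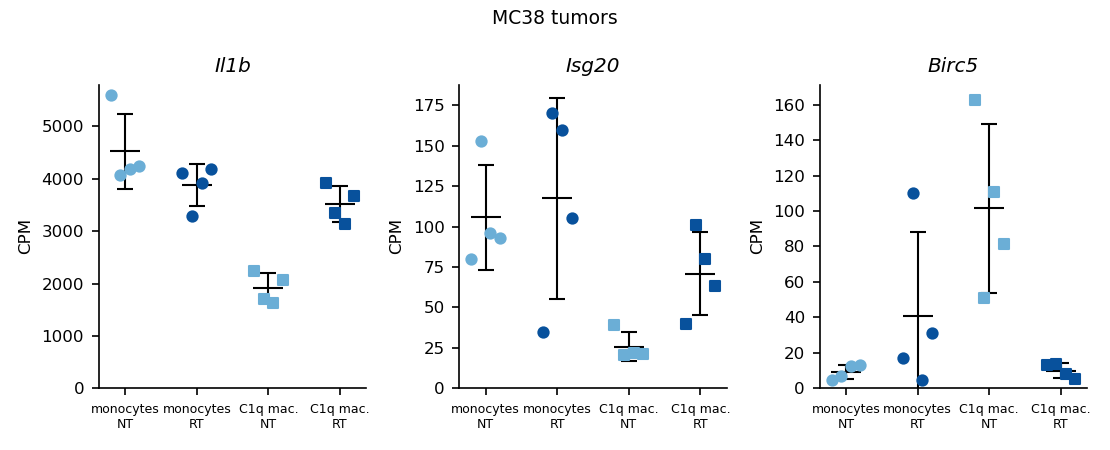
Levels in CPM of Il1b, Isg20 and Birc5 by MC38 library in monocytes (circles) and C1q macrophages (squares), untreated and irradiated, with bars for the mean ± SD of 4 libraries. Il1b in macrophages moves from between 1635 and 2232 CPM to between 3132 and 3923 CPM, and Birc5 in macrophages from 51.0 or above to 13.5 or below.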

How the data were processed

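Each of the 16 libraries of sorted CD45+ tumor cells has 1 deposited matrix of raw UMI counts by gene and barcode, which the authors made from 10x 3' reads. The submitters' processing notes name Cell Ranger 3.1.0, bcl2fastq 2.20.0 and the build mm10. The deposited feature and barcode tables give gene identifiers, symbols and barcode strings, and 31053 features were read. A matrix that combines all libraries was not used, and 0 columns belonged to other samples. Gene coordinates are from GENCODE M21 on GRCm38. The members, gene lists and tests were chosen with earlier results of these data known.

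UMIs were summed per library over gated barcodes and fitted in R 4.3.3 with edgeR 4.0.16 (1 coefficient per group, TMM scaling, robust quasi-likelihood, genes kept by filterByExpr with min.count 3 and min.total.count 15), with the calls given in the report, and the fit was tested on simulated data. Shares were compared with 2-sided exact permutation tests at an adjusted p under 0.05. Alternatives were RLE scaling, DESeq2 1.42.0, other count filters, a log2 fold change above 0.58, the compared groups alone, a replicate block, thinning to 2000 UMIs (to 1500 before the gate for shares), every barcode entry kept, other minimum numbers of monocytes, removal of doublet candidates, and leaving out each library. Scrublet's automatic threshold marked 0.1% of barcodes, so the top 5% of its scores were removed as an alternative and not in the reported values. The fit without barcodes bearing dendritic cell or stromal markers was chosen after the data had been seen. CPM are scaled to all UMIs of the summed barcodes of a library. Fold changes at low levels rest on few UMIs, and intervals on counts cover counting error only.

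Genes named were, for each comparison, the 10 largest rises and falls among called genes whose groups did not overlap, up to 4 called members of each of 27 lists, the gate genes and a fixed set of monocyte, p53 and inflammatory genes, of which those that carried a comparison are given. Sdc4 was named outside this rule. Some genes that this rule would name are not reported here.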

Additional observations from a re-analysis of the deposited data

Results flagged for a closer look

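In 112 sets of 4 libraries, 12 values stood apart from the other libraries of their group, and chance alone gives about 1 in 20. In MC38 NT 1 these were Tmem176a (146 CPM) and Il1b (5600.0 CPM). In MC38 RT they were Cdkn1a (2113 CPM), Itga4 (138 CPM) and the summed dendritic cell genes (1652 CPM, of which Ccl17 made 875) in library 1, Rtp4 (420.2 CPM) in library 2, Hpgd (1.58 CPM, 1 UMI) in library 3 and the summed tumor and stromal genes (46.9 CPM) in library 4. In Panc02-SIY they were the summed macrophage genes (4500.0 CPM) in NT 1, Trem2 (34.2 CPM) in RT 1, and Birc5 (71.1 CPM) and the summed tumor and stromal genes (105 CPM) in RT 3. The dendritic cell genes of MC38 RT 1 had 287 UMIs in its 10 gated barcodes, of which 1 barcode held 229, among them 63 of Ccr7, 46 of Ccl22 and 111 of Ccl17. That barcode did not meet the rule for dendritic cell or stromal markers and was kept in the second fit, where the sum was 2335 CPM.

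The radiation effect differed between lines (MC38 minus Panc02-SIY, log2, edgeR's interaction test) for 22 of the genes followed here. It was more positive in MC38 for Cdc20 (5.47), Phlda3 (4.38), Hells (2.70), Sgk1 (1.29) and H2-Ab1 (0.92). It was more negative in MC38 for Ifit1bl1 (-6.51), Hpgd (-5.39), Tmem176a (-2.71), Vcan (-2.48), Tmem176b (-2.23), Lgmn (-2.19), Fcgr2b (-1.97), Lilr4b (-1.81), Ifit2 (-1.75), Itgam (-1.70), Ifih1 (-1.69), Ccr1 (-1.66), Fcgr1 (-1.65), Ccr2 (-1.49), Sdc4 (-1.47), Il1b (-1.03) and Ctss (-0.87). Ifit1bl1 had no UMI in the tested Panc02-SIY NT libraries, so its fitted value is no measure of size. Of these 22, Tmem176a and Tmem176b were also called without barcodes bearing dendritic cell or stromal markers. The other 20 were not called in that fit, which has fewer barcodes and other libraries, and the cause of the lost calls was not tested. One of the 20 was Sdc4, whose rise in Panc02-SIY was called with and without those barcodes.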

How the results depend on the processing

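Depth and purity limit these results. Untreated Panc02-SIY gave 51 barcodes, and 2 of its 4 libraries had too few for the gene test, so calls that involve that group rest on Panc02-SIY NT 3 and 4. In simulated data 33% of 2-fold and 84% of 4-fold changes were recovered for radiation in MC38, and 10% and 54% in Panc02-SIY. Among single genes that were called over all gated barcodes and followed under the alternatives, 4688 values kept their direction and side of the threshold, 494 kept the direction but lost the call, and 6 reversed. The reversals all came in the fit without marker-bearing barcodes, and were Il1b (-0.0360) and Ms4a4c (-0.0894) for radiation in Panc02-SIY, Itgam (0.00506) and H2-Ab1 (-0.0564) for the difference between radiation responses, and Phlda3 (0.22) and Mki67 (0.53) for MC38 minus Panc02-SIY untreated. That fit has fewer barcodes and other libraries, and the cause of a reversal was not tested.

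The count of 13 genes for radiation in MC38 became 79 with no low-count filter, 5 with every barcode entry kept, 3 with libraries of at least 5 monocytes and 8 without marker-bearing barcodes. Leaving out 1 library gave 7 to 16 genes, with 8 without MC38 NT 2, 8 without MC38 NT 4 and 7 without MC38 RT 4. The count of 745 for Panc02-SIY became 47 after thinning and 1 without marker-bearing barcodes, and leaving out 1 library gave 67 (without Panc02-SIY NT 4) to 897. With every barcode entry kept it was 1120.0, although the 217 gated barcodes of Panc02-SIY were the same and only those of MC38 changed. Untreated, the count of 1369 between tumors became 196 after thinning and 907 without marker-bearing barcodes, and 577 (without Panc02-SIY NT 4) to 1425 when 1 library was left out. Irradiated, the count of 2185 became 504 after thinning, and 1652 to 2307 when 1 library was left out.

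The count of 188 for the difference between radiation responses became 388 with no low-count filter, 3 after thinning, 368 with every barcode entry kept, 88 with libraries of at least 5 monocytes and 2 without marker-bearing barcodes. Leaving out 1 library gave 15 to 380.0, with 102 without MC38 NT 4, 380.0, 15, 109, 93 and 299 without Panc02-SIY NT 3, NT 4, RT 1, RT 2 and RT 3. The count of 50 against C1q macrophages in MC38 became 22 by DESeq2, 178 with no low-count filter, 33 at a minimum count of 10, 0 after thinning, 0 with every barcode entry kept, 20 without high Scrublet scores, 24 with libraries of at least 5 monocytes and 26 without marker-bearing barcodes. Leaving out 1 library gave 16 to 73 (25 without MC38 NT 1 or NT 4, 18 without RT 2, 16 without RT 4). In Panc02-SIY the count of 74 became 209 with no low-count filter, 17 after thinning, 224 with every barcode entry kept, 25 with libraries of at least 5 monocytes and 14 without marker-bearing barcodes, and 13 (without NT 4) to 118 (without NT 3) when 1 library was left out, with 43 without RT 2. RLE scaling changed the split of higher and lower calls to 393 and 389 in Panc02-SIY, 660 and 718 between untreated tumors, 97 and 110 for the difference between responses, and 33 and 24 against macrophages in Panc02-SIY. Thinning moved the median of all genes to 0.15 for radiation in Panc02-SIY, -0.13 for the difference between responses and 0.21 against macrophages in Panc02-SIY.

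For the shares, the difference in Panc02-SIY was 31.8 points (adjusted p = 0.0714, exact permutation test) among monocytes and C1q macrophages, the difference between untreated tumors 13.7 points and that between irradiated tumors -12.6 points. Thinned to 1500 UMIs before the gate, the differences were 3.41 points for radiation in MC38, 2.95 in Panc02-SIY, 8.01 between untreated and 8.46 between irradiated tumors. Leaving out 1 library gave -0.976 to 2.34 points for radiation in MC38, 1.40 to 1.72 in Panc02-SIY, 9.54 to 12.9 between untreated and 10.1 to 10.7 between irradiated tumors, and -2.52 to 0.794 for the difference between responses. Without any 1 of the Panc02-SIY NT libraries the p of the untreated comparison was 0.0571, and the adjusted p was 0.0714, 0.0952 and 0.0714 for the Panc02-SIY, untreated and irradiated comparisons (exact permutation test).

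The replicate numbers did not pair the libraries. Deviations from group means correlated at -0.0209 to 0.0271 between same-numbered MC38 libraries and at -0.214 to -0.0371 between the 2 same-numbered pairs of Panc02-SIY. With the replicate number as a block, 18 genes were called for radiation in MC38, 579 in Panc02-SIY, 1088 and 2106 between untreated and irradiated tumors, and 119 for the difference between radiation responses.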

Other observations

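Nos2, the inducible nitric oxide synthase gene, had 3 UMIs in the Panc02-SIY RT monocytes and 24 in those of MC38 RT, and Ly6c1 had 3 UMIs in MC38 RT and 18 in Panc02-SIY RT.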
